A study of Mus musculus with 9 samples.

Results

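Serpins are protease inhibitors, and 7 of their genes are described here in mouse CD8+ T cells: Serpine2, Serpinb6a, Serpinb6b, Serpinb9, Serpinb9b, Serpina3f and Serpina3g. They are 7 of the 69 genes whose symbol begins with Serpin, among 55421 genes counted. The 7 were taken by symbol as serpins that these T cells express, and they were selected on their levels and differences in these same libraries. Their own differences are therefore given as a description. Calls of the genome-wide fit, and intervals, are stated where they fall, but they rest on the values that selected the members and support nothing.

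RNA was sequenced after depletion of ribosomal RNA from 9 libraries of splenic CD8+ T cells of Pmel Ly5.1 mice. These mice combine a transgenic T-cell receptor against a melanocyte antigen with the Ly5.1 variant of CD45, and all 3 groups share that genotype. For 36 h the T cells of 6 libraries were kept with DM5, an immortalised mesenchymal stromal line from the bone marrow of BL6 mice, whose mitochondria were labelled with the red protein DsRed. T cells were then sorted on CD8 and DsRed into MitoPositive (DsRed+, 3 libraries) and MitoNegative (DsRed-, 3 libraries), so that MitoPositive cells carried signal from stromal mitochondria. The 3 monoculture libraries came from T cells without stromal cells, and the labels describe no sort for them, so the effects of co-culture and of sorting cannot be told apart in comparisons with monoculture. All 9 sample titles carry a time of 0hr, which the labels do not explain beside the 36 h of co-culture. DM5 is a single line, and the age and sex of the mice are not given. Each group has replicates B, C and D. The labels do not say whether these letters are separate animals or cultures, so a p-value here speaks only of the spread among the samples at hand, part of which can be technical.

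Total counts were 53546152 to 74722832 per library, and no pair of libraries of a group agreed within sampling noise (chi-square of 18.2 to 63.9 for each degree of freedom). Levels are given as CPM, counts scaled to a common library size after normalisation by trimmed mean of M-values, and as CPM per kb of exon where genes are compared with each other. Markers of the labelled cell type were abundant, with Cd8a at 1070 to 1320 CPM and Cd3e at 388 to 468 CPM over the 9 libraries. The 10 CD8+ T-cell markers summed to 8160 to 9090 CPM in monoculture, 7180 to 7520 in MitoNegative and 7240 to 7650 in MitoPositive. Against monoculture, edgeR called 7 of them lower in MitoPositive and 8 in MitoNegative, and 0 higher. Of all genes tested, 42.2% and 38.9% were called in either direction. The 5 markers of CD4+ T cells summed to 244 to 297 CPM in monoculture, 275 to 305 in MitoNegative and 332 to 349 in MitoPositive, nearly all of it from Ctla4, which activated CD8+ T cells also express, while Cd4 itself was at 0.633 to 3.39 CPM. The 7 natural killer markers summed to 103 to 179, 201 to 257 and 170 to 203 CPM in that order of groups, mostly from Klrk1, with Ncr1 at 0.205 CPM or less. Of the 4 tested, 0 were called higher and 3 lower in MitoPositive than in monoculture, namely Klrb1c (log2 -1.82), Eomes (log2 -1.06) and Klre1 (log2 -0.78). In MitoNegative, Klrk1 was called higher (log2 0.93) and Eomes lower (log2 -0.63). The 15 myeloid markers summed to 4 to 5.17, 5.15 to 8.66 and 6.21 to 7.56 CPM, with Csf1r at 0.215 CPM or less. Of the 6 tested with edgeR, 2 were called higher and 2 lower in MitoPositive than in monoculture, and 1 higher and 1 lower in MitoNegative. Cd68 was higher (log2 1.15 in MitoPositive and 1.1 in MitoNegative) and Adgre1 lower (log2 -3.07 and -2.57) in both. In MitoPositive alone, Cd14 was called higher (log2 2.85) and Lyz2 lower. Dendritic markers summed to 62 to 94 CPM in monoculture, 36.1 to 55.6 in MitoNegative and 38.7 to 55.2 in MitoPositive. Of the 8 tested, 1 was called higher and 2 lower in MitoPositive than in monoculture, and 1 higher and 3 lower in MitoNegative. The higher one was Zbtb46 in both (log2 1.8 and 1.67). The summed level of 10 B-cell markers was 684 to 756 CPM in monoculture, 369 to 464 in MitoNegative and 279 to 311 in MitoPositive, most of it from Ighm. The part of these cells in the results was not tested.

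A serpin offers a protease a loop that resembles a substrate. When the protease cuts the loop, the serpin changes shape and holds the protease in an inactive complex, so each serpin molecule is used up by its target. Members of clade E act outside cells and those of clade B mostly within them, while clade A holds many secreted inhibitors and a few that work inside lymphocytes. Cytotoxic T cells carry granules of granzymes and perforin, and intracellular serpins are known to protect such cells from proteases that leak from the granules and from lysosomes.

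Of the 69 serpin genes, 37 had no count in any of the 9 libraries and 32 had at least 1. The filter on low counts kept 14 of them, which included all 7 listed genes. The other 18 with a count did not reach more than 10 counts in any library. Summed over all serpins, the level was 57.6 ± 4.42 CPM per kb in monoculture (SD, n = 3 here and below), 134 ± 5.25 in MitoNegative and 159 ± 17.8 in MitoPositive. The 7 listed genes together made up 92.8% ± 1.24 of that sum in monoculture, 95.7% ± 0.434 in MitoNegative and 96.4% ± 0.327 in MitoPositive. The listed genes held nearly all serpin message in each library. As they were selected on their levels and differences in these libraries, their shares are a description and nothing is read from them.

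**Figure D1:**
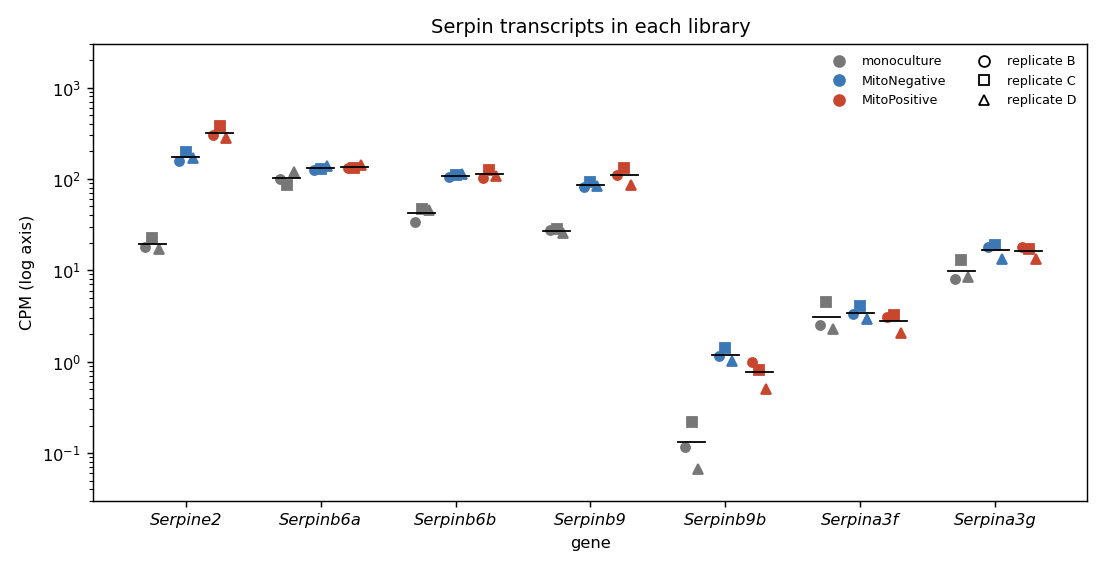
CPM of the 7 serpin genes in each library on a log axis, coloured by group, with a marker shape per replicate letter and a bar at the group mean. Serpine2 separates all 3 groups, Serpinb6b and Serpinb9 separate monoculture from both co-cultured groups, and Serpina3f overlaps in all of them.

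Serpine2, or protease nexin-1, is a secreted inhibitor of thrombin, trypsin and the plasminogen activators that binds heparan sulfate at the cell surface. Its level was 18.2, 22.8 and 17.2 CPM in monoculture, 159, 197 and 170 CPM in MitoNegative and 301, 378 and 283 CPM in MitoPositive, in the order B, C and D. No library of any group overlapped with another group, and letter C was the highest in each. The fold was 9.05 for MitoNegative over monoculture (log2 3.18 ± 0.147, SE) and 16.5 for MitoPositive over monoculture (log2 4.05 ± 0.152). Between the 2 sorted groups it was 1.83 (log2 0.87 ± 0.134, 95% interval 0.57 to 1.17), and by letter it was 1.89, 1.92 and 1.66. In the share of all serpin message per length, Serpine2 went from 4.07% ± 0.625 in monoculture to 15.8% ± 1.15 in MitoNegative and 24.2% ± 1.1 in MitoPositive.

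Serpine2 was the member that the fit called between MitoPositive and MitoNegative, where 26 of 15711 genes were called in either direction (0.165%) and 14 of them as higher (0.0891%). Of all tested genes, 135 had a higher log2 fold in that comparison. The call was close to the threshold of 0.05 for the adjusted p. It was lost when any of 6 libraries was left out, namely monoculture B, MitoNegative B, C or D, or MitoPositive B or C, with log2 folds of 0.73 to 0.97 over all alternatives. It was also lost with DESeq2's size factors, with total counts as the scale, with no filter, with a filter at 1 CPM, and without letter B, C or D in all groups. It held in 7 of 20 alternatives, among them a fit with a replicate block for the letter, which called 367 genes.

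The gene lies on chromosome 1 at chr1:79794197-79861180 (GRCm38, minus strand). Its promoter window, from RefSeq on GRCm38.p6, is shown because Serpine2 had the largest log2 fold of the 7 in each comparison. The window runs from 250 bases before to 50 bases after the annotated start (chr1:79858616-79858915, minus strand), 5′ to 3′.
Serpine2: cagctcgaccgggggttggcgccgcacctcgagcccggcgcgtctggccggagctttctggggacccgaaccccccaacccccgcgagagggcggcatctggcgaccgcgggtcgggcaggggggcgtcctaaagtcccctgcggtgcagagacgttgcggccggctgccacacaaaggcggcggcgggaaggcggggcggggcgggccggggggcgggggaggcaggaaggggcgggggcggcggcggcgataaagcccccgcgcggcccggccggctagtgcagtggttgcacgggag
Here and below, capitals mark matches to GAS (TTCNNNGAA), ISRE (GAAA, any 2 bases, GAAA) or the kappaB motif on either strand, which are binding motifs of STAT, interferon regulatory and NF-kappaB factors. This window holds none of them, hence no capitals, and no AP-1 match (TGANTCA) or TATA box (TATAAA). It holds 6 GC boxes (GGGCGG), the last at position -13 from the start. Of 32851 promoter windows of the same length, 35.7% hold a GC box.

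Stromal cells are known to make Serpine2, so its level was set beside transcripts of the stromal line. The summed level of 11 collagen genes was 0.459, 0.865 and 0.431 CPM in monoculture, 17.9, 19.3 and 6.8 CPM in MitoNegative and 15.6, 18.4 and 7.69 CPM in MitoPositive. Collagen message was thus present in both sorted groups, and letter D was the lowest in each. Col1a2 and Col3a1 had no count in the 3 monoculture libraries, where Serpine2 stood at 17.2 to 22.8 CPM. Col1a1 was 0.43 ± 0.175 CPM in monoculture, 4.41 ± 1.95 in MitoNegative and 4.3 ± 2.03 in MitoPositive. In bulk RNA, fewer cells of a type and less RNA per cell cannot be told apart.

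Between MitoPositive and MitoNegative the collagen sum had a log2 ratio of -0.08 (two-sided exact permutation test, p = 0.8, adjusted p = 0.8 over 6 tests). For the full list of 46 stromal markers it was -0.05 (exact permutation p = 0.7, adjusted p = 0.8). With 3 libraries against 3, such a test cannot go below 0.1, which is the value it gave for either sum against monoculture (adjusted p = 0.15). The full list summed to 40.9 to 54.3 CPM in monoculture, 82.9 to 115 CPM in MitoNegative and 82.4 to 114 CPM in MitoPositive. Much of the monoculture sum came from Eng, Nt5e, Thbs1 and Mmp14, each with a mean of 1 CPM or more there. Of the 34 stromal genes tested with edgeR, 30 were called higher in each co-cultured group than in monoculture. Over all genes tested, 22.3% were called higher in MitoPositive and 20.6% in MitoNegative. Stromal genes such as Col1a2, with no count in monoculture, passed the filter through the co-cultured libraries, so nothing is read from the number called higher. Between MitoPositive and MitoNegative, 0 stromal genes were called and 2 had an unadjusted p under 0.05, as did 1646 of all 15711 genes.

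Letter D of the sorted groups lay far below B and C in collagen message and near them in Serpine2. In MitoNegative, letter D held 0.366 of the mean collagen level of B and C but 0.955 of their mean Serpine2 level. In MitoPositive, the corresponding values were 0.453 and 0.832. For Serpinf1 and Serpinh1, both known from connective tissue, letter D held 1.24 and 0.718 in MitoNegative and 1.15 and 0.545 in MitoPositive. Serpine2 was thus not alone in departing from collagen message in letter D. Serpine2 per unit of collagen CPM was 8.89, 10.2 and 25 in MitoNegative and 19.3, 20.6 and 36.8 in MitoPositive, higher in MitoPositive for each letter although the groups overlap. The part of stromal RNA in the Serpine2 level of the co-cultured groups was not tested.

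**Figure D2:**
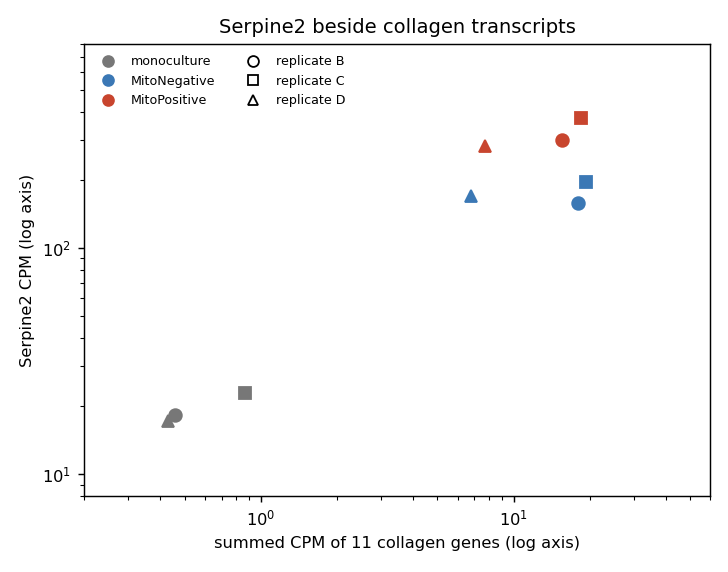
Serpine2 CPM (y, log axis) against the summed CPM of 11 collagen genes (x, log axis) in each library, coloured by group, with a marker shape per replicate letter. MitoPositive libraries lie above MitoNegative libraries at a like collagen level, and letter D of both groups lies to the left at 6.8 and 7.69 collagen CPM.

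Other serpins known from connective tissue were at 3.32 CPM or less. Serpinf1, which encodes pigment epithelium-derived factor, was at 0.0656 to 0.199 CPM in monoculture and 2.2 to 3.32 CPM in the 6 co-cultured libraries. Serpinh1, the collagen chaperone Hsp47, reached at most 1.38 CPM. Both were called higher in both comparisons with monoculture (edgeR, adjusted p of 0.00242 or less), with log2 folds between 3.33 and 4.62. Serpinc1, antithrombin, was also called in both (log2 1.20 and 0.97). Serpini1, neuroserpin, which had the highest level of the unlisted serpins at 2.98 ± 0.543 CPM per kb in monoculture, was called lower in MitoPositive (log2 -0.56 ± 0.123) and not in MitoNegative (log2 -0.32 ± 0.122). Serpinb1a, an inhibitor of neutrophil proteases, was not called in any comparison. Of the 7 unlisted serpins that were tested, which include Serpinb1b, named here after its values were seen, 0 were called between MitoPositive and MitoNegative (0 at an unadjusted p under 0.05, and 0 with DESeq2 or limma voom). Against monoculture, 5 of the 7 were called higher in each co-cultured group, Serpinb1b among them, and 1 lower in MitoPositive. Their median log2 folds were 3.03 in MitoPositive and 2.72 in MitoNegative. Of all genes tested, 22.3% and 20.6% were called higher. Serpinf1 and Serpinh1 passed the filter through the co-cultured libraries, so nothing is read from the number called higher or from these medians.

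Of 11 listed proteases known as targets of Serpine2, 5 passed the filter. Thrombin itself, F2, was at 0.166 CPM or less, and the plasminogen activators Plau and Plat at 0.243 CPM or less. Klk8 was at 34 to 55.9 CPM and Prss2 at 7.5 to 16.2 CPM over the 9 libraries. Prss2, a trypsin gene with similar copies in the genome and hence an uncertain count, was called higher in both co-cultured groups than in monoculture (log2 0.63 ± 0.141 in MitoPositive and 0.84 ± 0.141 in MitoNegative), and Klk8, a kallikrein, was called lower in MitoNegative (log2 -0.32 ± 0.109). The thrombin receptor F2r was at 53 to 75.1 CPM in monoculture, 78.3 to 86.6 in MitoNegative and 86.3 to 104 in MitoPositive. It was called in MitoPositive over monoculture (log2 0.55 ± 0.118). Per length, Serpine2 stood at 0.123 ± 0.0436 of F2r in monoculture, 0.86 ± 0.133 in MitoNegative and 1.33 ± 0.18 in MitoPositive. F2rl2, the gene of the receptor PAR3, rose in both comparisons with monoculture (log2 2.94 and 2.40), and F2rl1, the gene of PAR2, fell (log2 -1.66 and -1.59). Of the 8 tested thrombin and plasminogen receptors and their partners, 3 rose and 2 fell in MitoPositive and 2 rose and 2 fell in MitoNegative. The share of all genes called in either direction was 42.2% and 38.9%, and 22.3% and 20.6% were called higher.

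Surface molecules that bind Serpine2 or clear its complexes formed a further list. Of 10 tested, 8 rose and 1 fell in MitoPositive against monoculture, and 7 rose and 1 fell in MitoNegative. The share of all genes called higher was 22.3% and 20.6%, and in either direction 42.2% and 38.9%. The median log2 folds of the list were 2.24 and 2.3, against 0.003 and 0.009 over all genes tested. The heparan sulfate proteoglycan Gpc1 was at 16.7, 26.2 and 20.3 CPM in monoculture, 66.4, 70 and 62.3 in MitoNegative and 94.9, 101 and 79.7 in MitoPositive. Its groups did not overlap, and it rose against monoculture in MitoPositive (log2 2.12 ± 0.151) and MitoNegative (log2 1.65 ± 0.15). Sdc4, a syndecan, rose likewise (log2 1.60 ± 0.136 and 1.76 ± 0.137), as did Sdc3 with a wider spread (log2 2.36 ± 0.554 and 2.83 ± 0.559). Lrp1, the endocytic receptor of serpin complexes, was at 0.0166 to 0.116 CPM in monoculture and 1.59 to 3.81 CPM in co-culture, with letter D the lowest of both sorted groups, as for the collagens. Lrp1 is named here after its values were seen. With 1 to 7 counts per monoculture library, Lrp1 passed the filter on low counts through the co-cultured libraries. Such genes shape the count of genes that rose and the medians of the list, so nothing is read from either.

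Serpinb6a and Serpinb6b are intracellular clade B serpins. The first is the mouse counterpart of human SERPINB6, known to inhibit cathepsin G, and the second is known to inhibit granzyme A. Serpinb6a was at 98.6, 86.5 and 120 CPM in monoculture, 125, 129 and 139 CPM in MitoNegative and 132, 132 and 141 CPM in MitoPositive. Monoculture lay below both co-cultured groups by a narrow margin, and the co-cultured groups overlapped. The folds over monoculture were 1.33 in MitoPositive (log2 0.41 ± 0.0996) and 1.29 in MitoNegative (log2 0.36 ± 0.0996). The call of MitoNegative over monoculture was lost without MitoNegative D, and both calls were lost without letter B or letter C in all groups.

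Serpinb6b showed a wider difference. It was at 33.9, 46.5 and 45.5 CPM in monoculture, 105, 110 and 112 CPM in MitoNegative and 102, 126 and 108 CPM in MitoPositive. All co-cultured libraries stood above all monoculture libraries, and the 2 sorted groups overlapped. The folds over monoculture were 2.66 in MitoPositive (log2 1.41 ± 0.117) and 2.59 in MitoNegative (log2 1.37 ± 0.117). Between the sorted groups the log2 fold was 0.04 ± 0.114 for Serpinb6b (95% interval -0.21 to 0.29) and 0.05 ± 0.0993 for Serpinb6a (-0.17 to 0.26). Per length, Serpinb6b stood at 1 ± 0.247 of Serpinb6a in monoculture, 1.99 ± 0.0585 in MitoNegative and 1.98 ± 0.256 in MitoPositive, so that the pair moved from like levels to a predominance of Serpinb6b.

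Both genes lie in the clade B cluster of chromosome 13, Serpinb6b at chr13:32965209-32979067 (plus strand) and Serpinb6a at the other end at chr13:33917918-34002794 (minus strand). Their longest shared alignment of transcripts was 86.2% identical over 1163 columns. Of the 50-base stretches of Serpinb6b, 2.92% also occur in another gene's transcripts, against 25.1% for Serpinb6a. Most of the latter lie in Ripk1, Nqo2 and 1110046J04Rik, which overlap Serpinb6a on the opposite strand. Nqo2 shares 12.5% of the stretches of Serpinb6a, 1110046J04Rik 8.52% and Ripk1 3.39%. Since the strandedness of the counting is not given in the sources used here, reads from these shared parts cannot be assigned, and the level of Serpinb6a is uncertain to that extent. Over the 9 libraries, Nqo2 had 6.51% as many counts as Serpinb6a and Ripk1 84.8%.

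The known targets of both serpins were at low levels. Gzma, the gene of granzyme A, was at 4.1 ± 0.982 CPM per kb in monoculture, 6.27 ± 0.771 in MitoNegative and 6.77 ± 1.6 in MitoPositive, where Serpinb6b stood at 18.6 ± 3.1, 48.1 ± 1.62 and 49.4 ± 5.61. Ctsg, the gene of cathepsin G, had a count in 1 of the 9 libraries.

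Serpinb9 and Serpinb9b are neighbours of Serpinb6b on chromosome 13. Serpinb9, also called SPI-6, inhibits granzyme B, and Serpinb9b is known to inhibit granzyme M. Serpinb9 was at 27.4, 28.3 and 25.7 CPM in monoculture, 82, 92 and 84.4 CPM in MitoNegative and 111, 133 and 86.1 CPM in MitoPositive. Monoculture was lowest, with little spread. MitoPositive B and C stood above all MitoNegative libraries, while MitoPositive D lay among them. The folds over monoculture were 4.05 in MitoPositive (log2 2.02 ± 0.134) and 3.18 in MitoNegative (log2 1.67 ± 0.133). Between the sorted groups the fold was 1.27 (log2 0.35 ± 0.128, 95% interval 0.06 to 0.63), and by letter it was 1.35, 1.44 and 1.02. Serpinb9 was not called in that comparison, and without MitoPositive D it was, at log2 0.50 ± 0.0856.

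Serpinb9b was the rarest of the 7. It had 7, 13 and 4 counts in monoculture, 77, 98 and 68 in MitoNegative and 76, 43 and 36 in MitoPositive. In CPM this was 0.0662 to 0.216, 1.01 to 1.4 and 0.502 to 1, in that order of groups. Both co-cultured groups stood above monoculture, by 8.85-fold in MitoNegative (log2 3.15 ± 0.394) and 5.75-fold in MitoPositive (log2 2.52 ± 0.402). MitoPositive was lower than MitoNegative for each letter, with folds of 0.875, 0.572 and 0.498, and the groups did not overlap, but the difference was not called (log2 -0.62 ± 0.319, 95% interval -1.32 to 0.07).

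Serpinb9 lies at chr13:33003250-33017957 and Serpinb9b at chr13:33027416-33041884, both on the plus strand. Their transcripts aligned over 1970 columns with 79.1% identity, and 0.378% of the 50-base stretches of Serpinb9 and 5.38% of those of Serpinb9b also occur in another gene. The promoter window of Serpinb9 (RefSeq, GRCm38.p6, chr13:33004291-33004590, plus strand) is shown because it holds an ISRE match that the window of Serpinb9b lacks.
Serpinb9: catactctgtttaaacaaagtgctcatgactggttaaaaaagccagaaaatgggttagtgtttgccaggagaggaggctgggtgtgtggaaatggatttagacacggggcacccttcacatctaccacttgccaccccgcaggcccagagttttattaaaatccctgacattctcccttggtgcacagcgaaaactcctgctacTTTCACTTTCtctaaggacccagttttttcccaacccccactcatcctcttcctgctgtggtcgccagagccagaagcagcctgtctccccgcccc
The match reads TTTCACTTTC, is on the minus strand and begins at position -46. An ISRE match is held by 3.44% of the 32851 windows.

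Granzymes and perforin are cargo of cytotoxic granules, and of these Serpinb9 is known to inhibit granzyme B. Of 11 tested genes, 5 rose and 1 fell in MitoPositive against monoculture, and 4 rose and 1 fell in MitoNegative. The gene that fell was Srgn, the granule proteoglycan serglycin (log2 -0.20 and -0.23), named here after its values were seen. Among all genes tested, 42.2% and 38.9% were called in either direction, and 22.3% and 20.6% as higher. Gzmb was at 21.3, 52.5 and 38.6 CPM in monoculture, 568, 430 and 500 CPM in MitoNegative and 918, 842 and 613 CPM in MitoPositive. It rose by log2 4.4 ± 0.362 in MitoPositive and 3.74 ± 0.352 in MitoNegative. Gzmc rose by log2 3.40 ± 0.23 and 2.52 ± 0.226. Prf1, the gene of perforin, rose by log2 1.91 ± 0.128 and 1.66 ± 0.127.

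The log2 fold of Serpinb9 was smaller than that of Gzmb in both comparisons. Per length, Serpinb9 stood at 0.529, 0.222 and 0.273 of Gzmb in monoculture. It stood at 0.0594, 0.088 and 0.0693 in MitoNegative and 0.0495, 0.0647 and 0.0577 in MitoPositive. All 6 co-cultured libraries were below all 3 monoculture libraries, and the sorted groups overlapped. Against Prf1, the ratio was 0.586 ± 0.141 in monoculture, 0.571 ± 0.0511 in MitoNegative and 0.608 ± 0.076 in MitoPositive, and all groups overlapped. Gzmm, the target of Serpinb9b, was at 0.693 ± 0.181 CPM per kb in monoculture, 0.548 ± 0.0244 in MitoNegative and 0.457 ± 0.0636 in MitoPositive, and was not called. Serpinb9b stood beside it at 0.0395 ± 0.0228, 0.354 ± 0.0599 and 0.229 ± 0.0751.

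**Figure D3:**
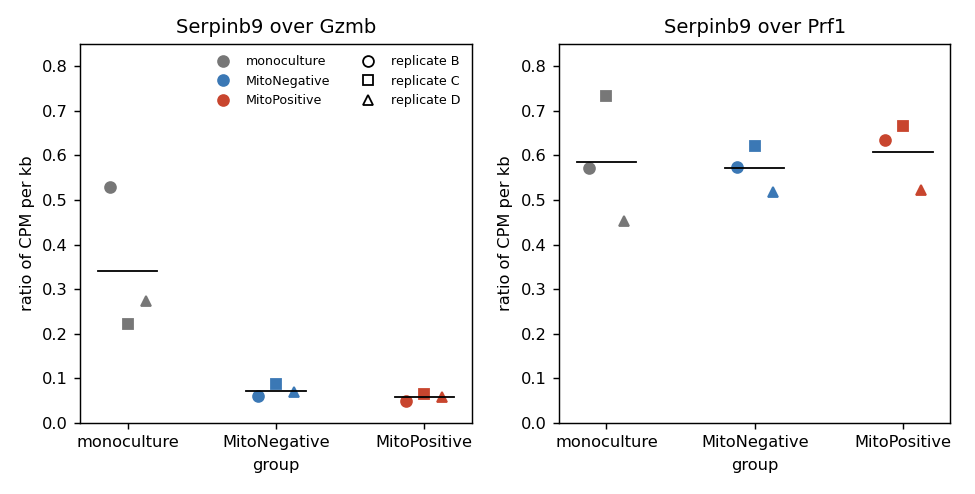
Ratio of the level per kb of Serpinb9 to that of Gzmb (left) and of Prf1 (right) in each library by group, with a marker shape per replicate letter and a bar at the group mean. The ratio to Gzmb is 0.222 to 0.529 in monoculture and at most 0.088 in co-culture, while the ratio to Prf1 overlaps between the groups.

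Serpina3f and Serpina3g are clade A serpins. Serpina3g, also called Spi2A, is known to inhibit lysosomal cathepsins within lymphocytes and to be induced by interferon and NF-kappaB signals, and Serpina3f is its close relative. Serpina3f was at 2.52, 4.47 and 2.25 CPM in monoculture, 3.29, 4.05 and 2.93 CPM in MitoNegative and 3.06, 3.27 and 2.08 CPM in MitoPositive. All groups overlapped, letter C was the highest in each, and Serpina3f was not called in any comparison. The 95% intervals of its log2 fold were -0.87 to 0.28 between the sorted groups, -0.72 to 0.44 for MitoPositive over monoculture and -0.42 to 0.73 for MitoNegative over monoculture.

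Serpina3g was at 7.93, 13.1 and 8.36 CPM in monoculture, 18.2, 18.7 and 13.4 CPM in MitoNegative and 17.9, 17.1 and 13.3 CPM in MitoPositive. The co-cultured groups stood above monoculture, although monoculture C and letter D of both sorted groups nearly met. The folds over monoculture were 1.64 in MitoPositive (log2 0.72 ± 0.209) and 1.72 in MitoNegative (log2 0.78 ± 0.209), and between the sorted groups the log2 fold was -0.06 ± 0.206. Both calls against monoculture were lost without monoculture B, without monoculture D, without letter B in all groups, and with no filter on low counts. That of MitoPositive was lost as well without MitoPositive B or C, and that of MitoNegative without MitoNegative C. Per length, Serpina3g stood at 3.55 ± 0.444 of Serpina3f in monoculture, 5.35 ± 0.596 in MitoNegative and 6.34 ± 0.629 in MitoPositive.

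The 2 genes lie next to each other on chromosome 12, Serpina3f at chr12:104214544-104221129 and Serpina3g at chr12:104236245-104241939, both on the plus strand. Their transcripts aligned with 88.9% identity over 1756 columns. Of their 50-base stretches, 10.6% for Serpina3f and 15.5% for Serpina3g also occur in another gene, so a part of their counts is uncertain. Their promoter windows (RefSeq, GRCm38.p6, plus strand, chr12:104214294-104214593 for the first of 2 windows of Serpina3f and chr12:104235897-104236196 for Serpina3g) are shown because these near copies differed in their level and in their difference between groups.
Serpina3f: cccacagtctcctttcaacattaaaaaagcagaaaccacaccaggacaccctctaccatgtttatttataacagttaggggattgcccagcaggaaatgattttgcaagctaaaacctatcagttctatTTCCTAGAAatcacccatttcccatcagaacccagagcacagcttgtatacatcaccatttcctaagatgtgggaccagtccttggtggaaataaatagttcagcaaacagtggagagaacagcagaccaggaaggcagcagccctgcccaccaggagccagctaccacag
Serpina3g: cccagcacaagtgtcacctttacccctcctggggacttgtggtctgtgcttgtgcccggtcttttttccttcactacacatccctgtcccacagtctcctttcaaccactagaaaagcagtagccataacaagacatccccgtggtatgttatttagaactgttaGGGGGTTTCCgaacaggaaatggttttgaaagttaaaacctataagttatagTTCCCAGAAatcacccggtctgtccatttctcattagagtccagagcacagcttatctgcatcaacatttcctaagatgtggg
The windows aligned over 214 columns with 79.0% identity. Each holds a GAS match, TTCCTAGAA at position -121 in Serpina3f and TTCCCAGAA at position -33 in Serpina3g, which 8.3% of all windows do. Serpina3g also holds a kappaB match, GGGGGTTTCC at position -85, which is not among the letters of the Serpina3f window; 8.46% of all windows hold such a match.

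Cathepsins, some but not all of which are known targets of Serpina3g, were listed together with legumain (Lgmn), another lysosomal protease. Of 14 tested genes of this list, 2 rose and 5 fell in MitoPositive against monoculture, and 3 rose and 4 fell in MitoNegative. Lgmn, named after its values were seen, was among those that fell in both. Among all genes tested, 42.2% and 38.9% were called in either direction, and 22.3% and 20.6% as higher. Ctsw, a cathepsin of cytotoxic cells, rose by log2 0.92 ± 0.0672 and 0.73 ± 0.067, and Ctsh fell (log2 -1.73 ± 0.26 and -1.77 ± 0.26). Ctsl, the gene of cathepsin L, rose by log2 0.29 ± 0.0768 and 0.57 ± 0.0767, and Ctsb, the gene of cathepsin B, was not called. Per length, Serpina3g stood at 0.107 ± 0.0402 of Ctsb in monoculture, 0.194 ± 0.0316 in MitoNegative and 0.188 ± 0.0285 in MitoPositive. Its ratio to Ctsl was 1.48 ± 0.389, 1.71 ± 0.313 and 2 ± 0.281, and overlapped between groups.

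Between MitoPositive and MitoNegative, edgeR called 0 genes of the 7 lists of proteases, receptors, cystatins and caspases. At an unadjusted p under 0.05 there were 2 of 11 tested genes of granzymes and perforin, 4 of 14 cathepsins and 1 of 10 Serpine2 receptors. Over all genes tested, 1646 of 15711 were under that value, so nothing is read from these counts. DESeq2 called 3 genes of these lists and the fit with the replicate block called 2.

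In 2 clusters, the listed genes lie among many serpin genes with no count. The chromosome 13 cluster spans chr13:32842092-34002794 with 17 serpin genes, of which 7 had no count, 6 were tested and 4 are listed. The chromosome 12 cluster spans chr12:103614786-104414329 with 28 serpin genes, of which 21 had no count and only Serpina3f and Serpina3g were tested. Serpine2 is the member outside both. Serpinb9b was below its unlisted neighbours Serpinb1a and Serpinb1b in mean CPM per kb in every group.

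**Figure D4:**
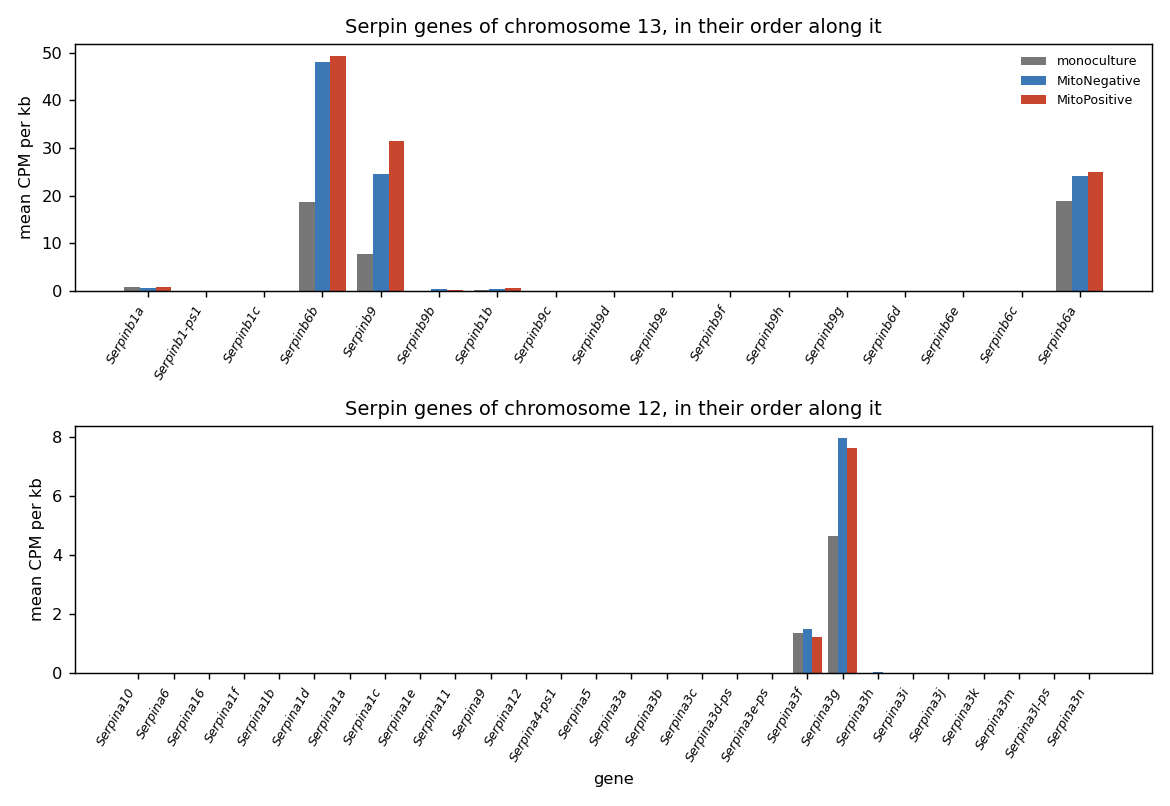
Mean CPM per kb of each serpin gene in its order along chromosome 13 (top) and chromosome 12 (bottom), with a bar per group. Serpinb6b, Serpinb9 and Serpinb6a stand out on chromosome 13 and Serpina3g, at up to 7.98 CPM per kb, on chromosome 12, while most neighbours, the listed Serpinb9b included, are near 0.

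Set side by side per length, the order of the 7 genes differed between groups. In monoculture it ran from Serpinb6a (18.8 ± 3.16 CPM per kb) and Serpinb6b (18.6 ± 3.1) over Serpinb9 (7.76 ± 0.383), Serpina3g (4.65 ± 1.35), Serpine2 (2.34 ± 0.359) and Serpina3f (1.35 ± 0.529) to Serpinb9b (0.0395 ± 0.0228). Only the first pair overlapped. In MitoNegative, Serpinb6b led at 48.1 ± 1.62, and Serpinb9 (24.6 ± 1.5), Serpinb6a (24.2 ± 1.32) and Serpine2 (21.2 ± 2.37) followed, each overlapping with the next. In MitoPositive, Serpinb6b (49.4 ± 5.61), Serpine2 (38.7 ± 6.15), Serpinb9 (31.4 ± 6.67) and Serpinb6a (25 ± 0.956) each overlapped with the next. Serpina3g, Serpina3f and Serpinb9b took the last 3 places in both sorted groups, with no overlap. Serpine2 thus took place 5 in monoculture, 4 in MitoNegative and 2 in MitoPositive.

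**Figure D5:**
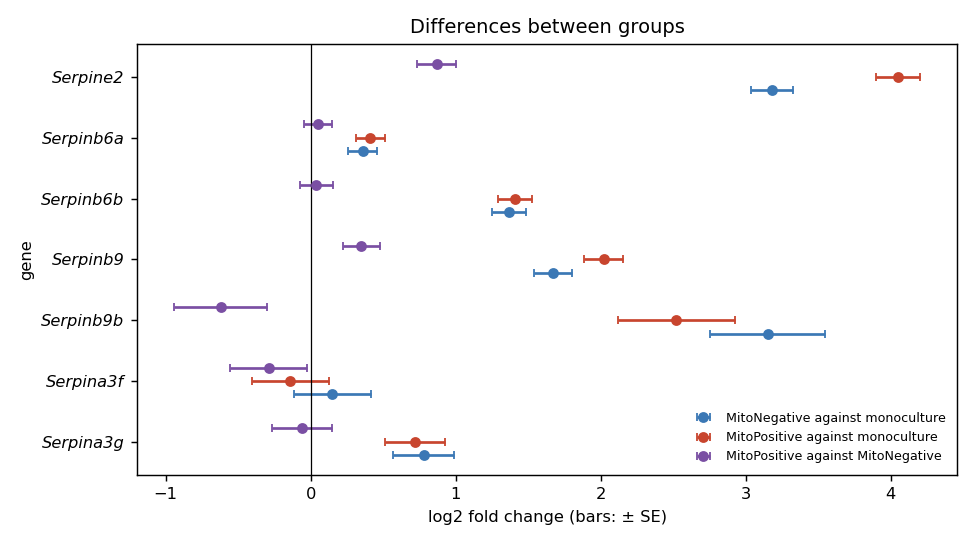
Log2 fold changes of the 7 genes in the 3 comparisons, with bars of ± SE. Both comparisons with monoculture are well above 0 for Serpine2, Serpinb9b, Serpinb9 and Serpinb6b and near 0 for Serpina3f, and between the sorted groups Serpine2 (0.87) lies highest and Serpinb9b (-0.62) lowest.

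Against monoculture, 6 of the 7 genes were called higher in MitoPositive, where 42.2% of all tested genes were called in either direction and 22.3% as higher. In MitoNegative the same number was called higher, beside 38.9% of all genes in either direction and 20.6% as higher. Serpina3f was the member not called in either. Both comparisons share the monoculture libraries, and the members were selected on these values, so nothing is read from the counts. The median log2 fold of the 7 was 1.41 in MitoPositive and 1.37 in MitoNegative, and 0.04 between the sorted groups, where that of all genes was 0.

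The genes with the most similar pattern over the 9 libraries were found by the root mean square distance of centred log2(CPM + 0.5) among 10085 genes. Nearest to Serpine2 were Prnp, the prion protein gene (0.117), Sulf2, a heparan sulfate sulfatase (0.186), and Adam8, a metalloprotease (0.294). Prnp had mean levels of 8.46, 76.1 and 147 CPM in monoculture, MitoNegative and MitoPositive. For Serpinb9 they were Gpt2 (0.094), Pdcd1, the gene of the inhibitory receptor PD-1 (0.114), and Nabp1 (0.138). For Serpinb6b they were Nbl1 (0.0902), Gapdh (0.113) and Ddias (0.114), and for Serpinb6a they were Tmed3 (0.0543), Tbc1d7 (0.0569) and Def8 (0.0616). Serpinb9b was nearest to Ddit3 (0.135), whose symbol is held by more than 1 identifier, Gadd45b (0.166) and Ppp1r16b (0.18). Serpina3f was nearest to Xdh (0.135), Trat1 (0.147) and St6galnac3 (0.156), and Serpina3g to Fnip2 (0.13), Klrk1 (0.137) and Hmgn3 (0.146). The distances describe these libraries only.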

How the data were processed

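Gene expression was measured in 9 libraries, 3 per group, grouped by their titles. The deposited table holds raw counts per gene. Per the submitters' processing notes, bcl2fastq, cutadapt, STAR 2.7, featureCounts, DESeq2 and GRCm38 were used. The annotation release, the strandedness and the treatment of reads that match several genes are not given in the sources used here. Spike-in controls, 99 of the 55520 entries, had no count and were left out. Exon lengths and coordinates are those deposited with the counts.

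The tool was edgeR 4.0.16 in R 4.3.3. The function filterByExpr (minimum count 10, minimum total 15) kept 15711 genes, which hold 99.96% or more of each library's counts. Libraries were scaled by TMM, and robust quasi-likelihood tests used 1 fit by group over all 9, which left 6 residual degrees of freedom. A gene was called at a Benjamini-Hochberg adjusted p under 0.05 over all tested genes. The script was tested on simulated data. Standard errors come from the fit, and ± SD is over 3 libraries.

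The 7 members and all gene lists were chosen with earlier results of these data known. All 7 members are named, as are up to 6 unlisted serpins of the highest mean CPM, up to 3 called genes per list with the largest absolute log2 fold and a mean log2 CPM of at least 1, Col1a1 and Cd8a, and the 3 genes nearest to each member. The known targets Gzma, Gzmm, Ctsb, Ctsg, F2, Plau and Plat and single cell-type markers other than Col1a1 and Cd8a were named after their values were seen. A few genes that the rule would name are not reported here. Stromal sums were compared by two-sided exact permutation tests. Promoter windows came from RefSeq (GRCm38.p6), and transcripts for shared stretches from GENCODE M21, searched on both strands with Biopython 1.88. In it, Serpina3g has another version than in the deposited table. Alternatives were DESeq2's size factors, total counts, 2 other filters, DESeq2 1.42.0, limma voom 3.58.1, a replicate block, only the 2 groups compared, and leaving out each library or, added after seeing the data, each letter.

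Same-letter residuals correlated at 0.402, 0.339 and 0.459 (B, C, D) between MitoPositive and MitoNegative and at 0.213, 0.153 and 0.111 between MitoNegative and monoculture, all above 0.1, so by that threshold the letters pair the libraries there. The reported fit and the permutation tests do not use these pairs, which enter only through the replicate block. Between MitoPositive and monoculture they were 0.248, 0.0521 and 0.163.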

Additional observations from a re-analysis of the deposited data

How the results depend on the processing

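The number of genes called between MitoPositive and MitoNegative, 26 in the fit reported, depended on the processing: 15 with DESeq2's size factors, 14 with total counts as the scale, 171 with no filter, 4 with at least 1 CPM in 3 libraries, 422 with DESeq2, 367 with the replicate block, 65 with only the 2 groups compared, and 1 to 120 when 1 library was left out. Without letter B or C in all groups it was 0, and without letter D 120. Of the calls, 53.8% were higher in MitoPositive, against 66.7% with DESeq2's size factors and 71.4% with total counts. The 1 listed serpin called there, Serpine2, became 0 with DESeq2's size factors, total counts, no filter or the filter at 1 CPM, and 0 to 2 when libraries or letters were left out. Its log2 fold was 0.73 to 0.97. As Serpine2 was selected on this difference, these calls are no independent test of it. Genes of the protease and receptor lists, 0 in the fit reported, came to 3 with DESeq2, 2 with the replicate block and 0 to 1 when libraries were left out (1 without letter D).

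Against monoculture, leaving out letter C gave 4122 genes called in MitoPositive in place of 6637, and 3495 in MitoNegative in place of 6110, with 20 in place of 34 genes of the lists in MitoNegative. The cause was not tested, and fewer samples enter that fit. Serpine2, Serpinb6b, Serpinb9 and Serpinb9b kept their calls against monoculture in the 20 alternatives run. The replicate block changed no call of a listed serpin.

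Small differences changed sign in these cases, where leaving out libraries gave log2 folds of -0.31 to 0.23 (Serpina3f, MitoPositive over monoculture), -0.02 to 0.52 (Serpina3f, MitoNegative over monoculture) and -0.2 to 0.06 (Serpina3g, between the sorted groups). Serpina3f in MitoPositive over monoculture was 0.23 without monoculture C, 0.04 without MitoPositive D and 0.1 without letter C (-0.14 in the fit reported), and in MitoNegative -0.02 without monoculture D. Between the sorted groups, Serpina3g was 0 without MitoNegative B, 0.03 without MitoNegative C and 0.06 without MitoPositive D, and Serpinb6b was -0.06 without MitoPositive C and -0.05 without letter C. The log2 ratio of the stromal sum was -0.18 to 0.06. Depth limits Serpinb9b, with 4 to 98 counts per library.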

Other observations

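Caspases, which act downstream of granzyme B, changed in both directions against monoculture. Of 9 tested, 4 rose and 3 fell in each co-cultured group. Among all genes tested, 42.2% were called in either direction in MitoPositive and 38.9% in MitoNegative, and 22.3% and 20.6% as higher. Casp4, an inflammatory caspase, was at 6.84 ± 0.985 CPM in monoculture (SD, n = 3), 18.9 ± 2.77 in MitoNegative and 19.2 ± 2.61 in MitoPositive, and rose by log2 1.49 ± 0.142 in MitoPositive and 1.46 ± 0.142 in MitoNegative. Casp6 fell (log2 -0.60 ± 0.0747 and -0.50 ± 0.0745). Cystatins and stefins, the other family of cathepsin inhibitors, had 4 tested genes. Of these, Cstb, the gene of stefin B, rose in both comparisons (log2 0.26 ± 0.0631 and 0.19 ± 0.0631) and the others were not called.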
